A study of Mus musculus with 12 samples.

Results

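The matrix metalloproteinases (MMPs), their tissue inhibitors (TIMPs) and urokinase were followed through the injured mouse retina as a set of 10 genes, Mmp2, Mmp3, Mmp9, Mmp12, Mmp14, Timp1, Timp2, Timp3, Timp4 and Plau, picked by symbol from the 25655 genes of the deposited tables. All 10 were found there under these symbols. MMPs are zinc-dependent proteases that are made as inactive proenzymes and cut collagens, laminins, fibronectin and other matrix proteins once their propeptide is removed. TIMPs bind active MMPs and block them, TIMP2 together with the membrane-anchored MMP14 is also needed to activate pro-MMP2, and TIMP3 is unusual among them in binding tightly to the matrix and in blocking ADAM-type proteases as well. In the eye, MMP9 and urokinase are known for their induction after injury to retinal ganglion cells, and TIMP3 for its place in Bruch's membrane beneath the pigment epithelium.

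The libraries came from whole retinas of C57BL/6J mice of both sexes, aged 8 to 10 weeks, taken 2 days after optic nerve crush (ONC) in the left eye and a single intravitreal injection. The 3 groups used here had 3 libraries each and received PBS (the control), Fluvastatin, a statin and so a blocker of HMG-CoA reductase, or MBV, matrix-bound nanovesicles isolated from pig bladder matrix. All groups therefore carry the crush and an injection, and no uncrushed retina is among them. The sources used here do not state whether a library is 1 retina or a pool, so the p-values measure the spread between libraries, which may be partly technical. The group given Fluvastatin + MBV is not analysed here, because columns were tied to libraries by name alone and its count columns carry no name of a library or group. The depth was 21349516 to 30992040 counts on genes per library. The labels number the libraries 1 to 6 in each of 2 sets. PBS shares its set with the combined group, and Fluvastatin shares its set with MBV. Set and treatment therefore cannot be told apart where a treatment is compared with PBS, whereas MBV and Fluvastatin lie in one set. In bulk retina, fewer cells of a type and less RNA per cell cannot be told apart either.

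Compared to PBS, the gelatinase genes Mmp2 and Mmp9 rose with each single treatment and Timp3 fell with each. Timp2 fell with Fluvastatin. At an FDR under 0.05 in edgeR's quasi-likelihood test, adjusted over all genes tested, 4 of the 10 genes were called with Fluvastatin, 2 higher and 2 lower, where 19.6% of all genes tested were called. With MBV, 3 of the 10 were called, 2 higher and 1 lower, against 26.1% of all genes. Between MBV and Fluvastatin edgeR called 0 of the 10 (0.0588% of all genes), with 0.0267% called higher and 0.032% lower, and DESeq2 also called 0 of the 10. At an unadjusted p under 0.05, 4 of the 10 passed with Fluvastatin (32.5% of all genes), 4 with MBV (37.8%) and 1, Timp1, between the treatments (10.7%). All 10 genes entered each test, including Mmp3, which lay at the limit of detection. With Mmp3 set to no change, the median log2 fold change of the 10 was 0.04 with Fluvastatin and 0.11 with MBV compared to PBS, beside medians over all genes tested of -0.01 and 0.01. The count with Fluvastatin dropped to 1, Mmp2, when PBS replicate 1, Fluvastatin replicate 2 or Fluvastatin replicate 3 was left out, and the count with MBV became 6 without MBV replicate 3. The calls over all genes also moved in these fits, from 3687 to 1726, 2113 and 2657 with Fluvastatin and from 4937 to 5664 with MBV. The Timp3 call with MBV was lost without PBS replicate 1 or 3 and without MBV replicate 1 or 2.

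**Figure D1:**
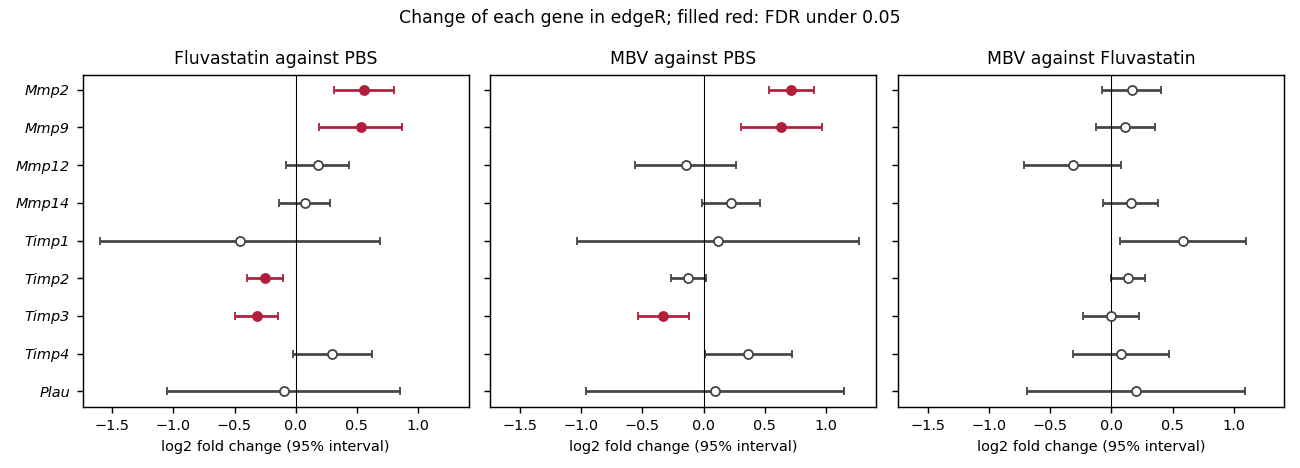
Log2 fold change of each gene (horizontal axis) in the 3 comparisons, with 95% intervals from edgeR; filled red points passed an FDR of 0.05 and open points did not. Mmp2 and Mmp9 lie to the right and Timp3 to the left in both comparisons with PBS, and no point is filled between MBV and Fluvastatin; Mmp3 is left out because it was barely detected.

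Per kilobase of exon, the inhibitors Timp2 and Timp3 stood far above the rest. Averaged over the 9 libraries, Timp2 had a level of 19.3 and Timp3 of 15.6 in CPM per kb, where CPM is a gene's counts scaled to a common library size, more than 91.0% and 88.0% of the 19054 genes with a length. The proteases lay in the middle of the range, with 3.52 CPM per kb for Mmp9, 2.70 for Mmp2, 2.53 for Mmp14 and 2.27 for Mmp12. Lower still were Timp1 with 0.841, Timp4 with 0.730 and Plau with 0.249 CPM per kb. Mmp3 reached 0.0143 CPM per kb, below all of the others.

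Mmp2 encodes gelatinase A, which cuts type IV collagen and denatured collagens, and lies at chr8:93553919-93580048 (GRCm39, plus strand). It had 7.12, 6.69 and 6.84 CPM in the PBS libraries, 11.2, 8.82 and 10.5 in the Fluvastatin group, and 11.5, 11.4 and 11.3 in the MBV group. Every treated library lay above every PBS library, and the MBV libraries were the most alike. The log2 fold change compared to PBS was 0.56 with Fluvastatin (standard error 0.110, FDR 0.0067) and 0.72 with MBV (standard error 0.0809, FDR 0.000678), which is 1.48-fold and 1.65-fold. Mmp2 passed whichever single library was left out. Between MBV and Fluvastatin the groups did not overlap either, but the log2 difference of 0.17 had an interval from -0.08 to 0.41 and did not pass (FDR 0.617).

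Mmp9 (chr2:164782700-164797770, plus strand), gelatinase B, is stored by neutrophils and also made by glia and neurons after injury. Its levels were 9.36, 7.16 and 11.4 CPM with PBS, 11.9, 13.4 and 15.2 in the Fluvastatin group, and 13.5, 14.7 and 15.6 in the MBV group. The lowest treated library, Fluvastatin replicate 1, was just above the highest PBS library, replicate 3. Mmp9 rose 1.45-fold with Fluvastatin (log2 fold change 0.53, standard error 0.154, FDR 0.0349) and 1.56-fold with MBV (0.64, standard error 0.146, FDR 0.0126). With Fluvastatin the call was lost without PBS replicate 1 (FDR 0.105) or 2 (0.0924) and without Fluvastatin replicate 2 (0.103) or 3 (0.122). With MBV it held whichever single library of the comparison was left out. The neutrophil markers, 10 of 12 with a count in any library, summed to 9.14 to 40.0 CPM with PBS, 12.8 to 13.4 in the Fluvastatin group and 24.2 to 57.7 in the MBV group. Their defining members Ly6g and Elane had 0 counts in all 9 libraries. Of the other 10, 6 had at most 3 counts in every Fluvastatin library, S100a8, S100a9 and Cxcr2 among them. The same held for 4 of them in the MBV group and for 3 in the PBS group. Lcn2 is also in the list of astrocyte and reactive glia markers, so this sum is not of neutrophils alone. Compared to PBS, 2 of the 9 neutrophil markers tested, Ltf and S100a8, fell with Fluvastatin and 0 rose, and with MBV 1 of 10, Ltf, fell. Over all genes tested, 10.2% and 14.1% were called lower. Both genes were near the limit of detection, with PBS means of 0.457 CPM for Ltf and 0.296 for S100a8. Ltf had at most 3 counts in every treated library, and S100a8 in every Fluvastatin library. The part of neutrophils in the Mmp9 values was not tested.

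Mmp12 encodes macrophage elastase. The PBS libraries had 15.6, 14.2 and 19.0 CPM, the Fluvastatin libraries 17.7, 20.8 and 16.6, and the MBV libraries 12.6, 11.97 and 19.8. The groups overlapped, and MBV replicate 3 stood apart from both other MBV libraries. Log2 differences were 0.18 for Fluvastatin against PBS (interval -0.08 to 0.44, FDR 0.320), -0.15 for MBV against PBS (-0.56 to 0.27, FDR 0.595) and -0.32 for MBV against Fluvastatin (-0.71 to 0.08, FDR 0.560). Without MBV replicate 3, Mmp12 passed as lower with MBV, with log2 fold changes of -0.41 against PBS (FDR 0.0183) and -0.58 against Fluvastatin (FDR 0.0415). The same library had the highest sum of the 12 monocyte and macrophage markers, 94.4 CPM, against 21.7 and 14.4 in MBV replicates 1 and 2, 16.4 to 33.4 with PBS and 12.4 to 16.5 with Fluvastatin. A single marker, Lyz2, had 21.7 ± 29.6 CPM in the MBV group (SD, n = 3), so this sum leans on 1 gene. Compared to PBS, 1 of the 12, Lyz2, was called lower with Fluvastatin (FDR 0.024), where 10.2% of all genes were. With MBV 0 of the 12 were called. The part of monocytes and macrophages in the Mmp12 values was not tested.

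Mmp14, the membrane-anchored collagenase that activates pro-MMP2, varied less. It had 14.2, 12.4 and 15.5 CPM with PBS, 15.8, 14.4 and 14.2 in the Fluvastatin group and 14.3, 17.5 and 17.6 in the MBV group, so that all groups overlapped. Its log2 fold change was 0.08 with Fluvastatin (interval -0.13 to 0.28, FDR 0.611) and 0.22 with MBV (interval -0.02 to 0.46, FDR 0.158) compared to PBS.

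Mmp3, stromelysin 1, was at the limit of detection, with 0, 2 and 1 counts in the PBS libraries, 0 in each Fluvastatin library and 1 in each MBV library. The limit was taken as at most 3 counts in each library of a group and covers counting error only, so no fold is given. The 250 bases before its RefSeq start, placed on GRCm39 at chr9:7445572-7445821 on the plus strand, are shown because Mmp3 was the only one of the 7 members with a window in the RefSeq promoter table to hold the AP-1 motif TGACTCA or its reverse complement. Capitals mark this motif and, nearer the start, the TATA box TATAAA.
Mmp3: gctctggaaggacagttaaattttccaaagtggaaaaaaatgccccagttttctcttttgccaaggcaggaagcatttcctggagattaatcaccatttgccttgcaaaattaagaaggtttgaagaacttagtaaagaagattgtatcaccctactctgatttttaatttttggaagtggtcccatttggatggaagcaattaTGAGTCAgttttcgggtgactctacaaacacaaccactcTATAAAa

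**Figure D2:**
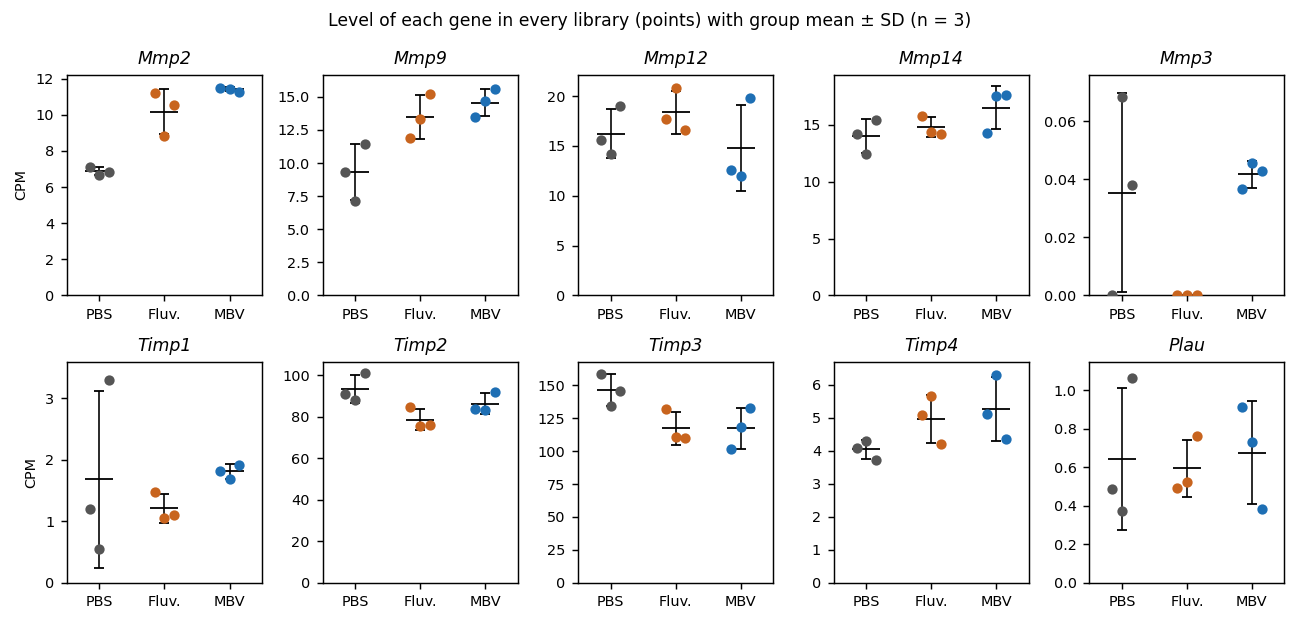
CPM of each gene (vertical axes, each from 0) in the 9 libraries, 3 points per group in replicate order, with the group mean ± SD as bars. The treated points lie above the PBS points for Mmp2 and Mmp9 and below them for Timp3, and the 3 PBS points of Timp1 and of Plau lie far apart.

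Timp3, the matrix-bound inhibitor, was the member with the highest counts and fell with each single treatment. It had 158.6, 134.7 and 146.1 CPM with PBS, 132.1, 110.6 and 109.7 in the Fluvastatin group and 101.3, 118.3 and 132.7 in the MBV group. The highest treated library, MBV replicate 3, was only just below the lowest PBS library, replicate 2. Timp3 fell by 0.32 on the log2 scale with Fluvastatin (standard error 0.0793, FDR 0.0188) and by 0.33 with MBV (standard error 0.0932, FDR 0.0295), and MBV and Fluvastatin differed by -0.0017 with an interval from -0.23 to 0.23. The call with Fluvastatin was lost without PBS replicate 1 (FDR 0.0911), Fluvastatin replicate 2 (0.0914) or Fluvastatin replicate 3 (0.0715). With MBV it was lost without PBS replicate 1 (FDR 0.118), PBS replicate 3 (0.0639), MBV replicate 1 (0.0850) or MBV replicate 2 (0.0601), while the log2 fold change stayed between -0.43 and -0.23. The summed level of the 12 markers of pigment epithelium and melanocytes was also lower in every treated library. It was 357.4 to 383.8 CPM with PBS, 252.3 to 287.1 in the Fluvastatin group and 223.4 to 283.5 in the MBV group, and 6 of them fell with each treatment, among them Pmel, Dct and Tyr, while 2, Rdh5 and Rgr, rose with Fluvastatin. Over all genes tested, 10.2% were called lower with Fluvastatin and 14.1% with MBV, and 9.36% were called higher with Fluvastatin. A single gene, Rlbp1, made up most of the summed level of the 12 markers, so the sum may not stand for the cell type. Its mean was 217.9 CPM over the PBS libraries, and lower after Fluvastatin (178.6) and after MBV (167.6). None of the 12 markers was at 3 counts or fewer throughout a group, and their part in the Timp3 result was not tested.

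Timp3 lies on the plus strand of chromosome 10 (86136236 to 86185370, GRCm39) within the gene Syn3, a synapsin, on the other strand. Timp1 lies within Syn1 and Timp4 within Syn2 in the same antisense arrangement. In the annotation, 1733 exon bases of Timp3 (21.3%) and 1142 of Timp4 (17.5%) are also exons of the synapsin, and 0 of Timp1. The strand setting of the counting is not given in the sources used here, so reads from these stretches may not be told apart. Syn3 rose where Timp3 fell, from 19.8 ± 1.03 CPM with PBS (SD, n = 3) to 24.2 ± 1.93 with Fluvastatin (log2 fold change 0.29, standard error 0.0759, FDR 0.0226) and 24.2 ± 1.99 with MBV (0.28, standard error 0.0738, FDR 0.0226).

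The same 250-base RefSeq windows were read for the other members that have one. The GC content was 65.6% for Timp3, whose window reaches 40 bases into the deposited gene and is not printed, and 37.6% for Mmp3, with a median of 52.4% over 32536 different windows of this length. The GC box GGGCGG was found on either strand in the windows of Mmp14, Timp1, Timp2 and Timp3, 4 of the 7, and in 33.0% of all windows. The Timp2 window lies wholly within the deposited gene, as its RefSeq start is 329 bases inside. The Mmp12 window reaches 16 bases into its gene. The AP-1 motif occurred in 4.45% of all windows and the TATA box in 12.3%, and Mmp3 held both. Mmp2, Mmp9 and Plau have no window in this table. A match of letters describes the window and is not evidence of a binding site.

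Timp2 (chr11:118191895-118246566, minus strand), the inhibitor that takes part in activating pro-MMP2, fell with Fluvastatin. It had 91.1, 88.0 and 100.9 CPM with PBS, 84.5, 75.4 and 75.7 in the Fluvastatin group and 83.5, 83.4 and 91.9 in the MBV group. The Fluvastatin libraries were all below PBS, and MBV replicate 3 lay within the PBS range. The log2 fold change was -0.25 with Fluvastatin (standard error 0.0647, FDR 0.0223) and -0.12 with MBV (interval -0.26 to 0.02, FDR 0.181). That the gene passed with Fluvastatin and not with MBV does not show a difference between them, as MBV against Fluvastatin gave 0.14 with an interval from -0.01 to 0.28 (FDR 0.487). Without MBV replicate 3, Timp2 also passed with MBV (log2 fold change -0.17, FDR 0.0457). The call with Fluvastatin was lost without PBS replicate 1 (FDR 0.0649) or 3 (0.0702) and without Fluvastatin replicate 2 (0.0988) or 3 (0.0785). Timp2 shares 285 exon bases (6.40%) with Cep295nl on the same strand, which had 1.80 ± 0.351 CPM with PBS (SD, n = 3).

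Timp1, the soluble inhibitor that glia and infiltrating cells induce on injury, was low and uneven. Its counts were 37, 16 and 87 with PBS, 36, 28 and 26 with Fluvastatin and 50, 37 and 45 with MBV, which is 1.20, 0.546 and 3.31 CPM, 1.48, 1.047 and 1.10 CPM, and 1.83, 1.69 and 1.93 CPM. PBS replicate 3 was the highest of all 9 libraries and PBS replicate 2 the lowest. Compared to PBS, the log2 fold change was -0.46 with Fluvastatin (interval -1.60 to 0.69, FDR 0.571) and 0.12 with MBV (interval -1.04 to 1.27, FDR 0.890). Without PBS replicate 3, the value with Fluvastatin turned to 0.46 (FDR 0.448). Within the set of library numbers that holds both treatments, every MBV library was above every Fluvastatin library. The log2 difference was 0.58 (interval 0.07 to 1.10, unadjusted p = 0.0309 in edgeR's test over 18721 genes, FDR 0.424), so it did not pass. PBS replicate 3 also had the highest sums in its group of the 8 astrocyte and reactive glia markers, 390.8 CPM against 197.9 and 185.3 (275.0 to 390.2 with Fluvastatin, 253.2 to 446.5 with MBV), of the monocyte and macrophage markers and of the neutrophil markers. Lcn2 is in both the glial and the neutrophil list, so these sums are not independent. None of the 8 glial markers passed in any comparison, and their part in the Timp1 values was not tested.

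Timp4, an inhibitor with a narrower tissue range than the other TIMPs, had 4.09, 4.30 and 3.72 CPM with PBS, 5.07, 5.65 and 4.20 in the Fluvastatin group and 5.12, 6.30 and 4.36 in the MBV group. The MBV libraries all lay above PBS and the Fluvastatin libraries overlapped it. Neither difference passed, with a log2 fold change of 0.37 with MBV (interval 0.01 to 0.73, FDR 0.124) and 0.30 with Fluvastatin (interval -0.02 to 0.62, FDR 0.186). Without MBV replicate 3 the value with MBV was 0.48 and passed (FDR 0.0311). Syn2, the synapsin around it, had 32.7 ± 3.37 CPM with PBS, 37.7 ± 5.22 in the Fluvastatin group and 38.0 ± 2.04 in the MBV group (SD, n = 3 each) and passed in neither comparison (FDR 0.184 and 0.0757).

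Plau, the urokinase that turns plasminogen into plasmin and through it activates several pro-MMPs, had few counts. There were 15, 11 and 28 with PBS, 12, 14 and 18 with Fluvastatin and 25, 16 and 9 with MBV, so all groups overlapped. The log2 fold change was -0.10 with Fluvastatin (interval -1.05 to 0.86, FDR 0.902) and 0.10 with MBV (interval -0.96 to 1.15, FDR 0.905). Differences within these intervals could not be detected with these counts and this spread between libraries.

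Groups that did not overlap with PBS can be read against all genes. With Fluvastatin, 2 of the 10 genes lay wholly above PBS (17.3% of all genes tested) and 2 wholly below (19.3%). With MBV, 3 lay wholly above (20.3%) and 1 wholly below (21%). Between MBV and Fluvastatin, 3 genes, Mmp2, Mmp3 and Timp1, lay wholly above (8.53%) and 0 below (7.88%), although Mmp3 did so with 1 count per MBV library and 0 per Fluvastatin library.

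Summed per kilobase, the 4 TIMPs came to 40.5 ± 2.93 CPM per kb with PBS, 33.5 ± 2.85 with Fluvastatin and 35.6 ± 2.87 with MBV (SD, n = 3 each). The 5 MMPs of the set came to 9.20 ± 1.20, 11.7 ± 0.210 and 12.2 ± 1.052. The ratio of the sums was 4.48, 4.65 and 4.13 in the PBS libraries, 3.16, 2.76 and 2.65 in the Fluvastatin group and 2.93, 2.92 and 2.90 in the MBV group. Every treated library had a lower ratio than every PBS library, and the ranges of both treatments overlapped. Timp2 and Timp3 carry nearly all of the inhibitor sum, with Timp3 alone at 37.8% to 47.3% of it. These sums are of transcripts and were formed from genes chosen with their results known, so no test is given.

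**Figure D3:**
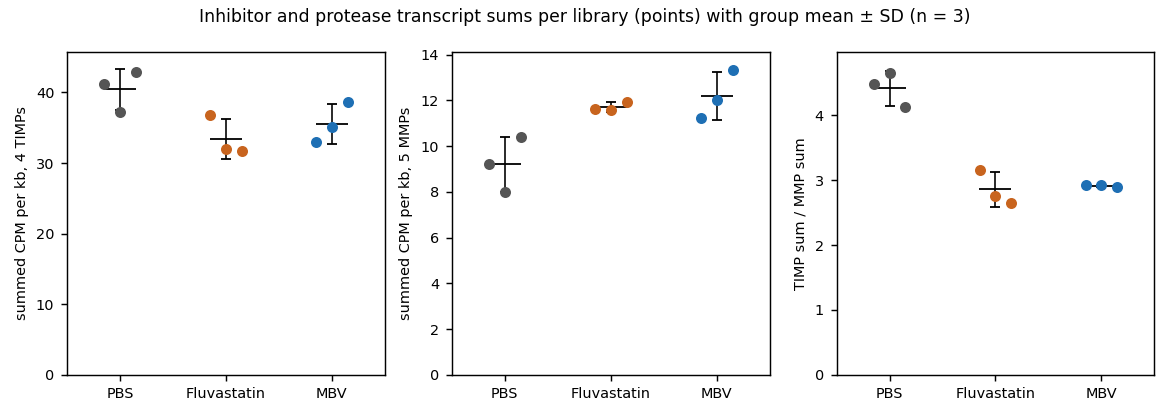
Summed CPM per kb of the 4 TIMPs, of the 5 MMPs, and the ratio of both sums (vertical axes, from 0) in each library, with group mean ± SD (n = 3). The ratio is between 4.13 and 4.65 in the PBS libraries and between 2.65 and 3.16 in the treated ones.

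Other genes of matrix proteolysis were read from 5 further lists. Of the 13 other MMPs with a count, 3 rose with Fluvastatin and 4 with MBV compared to PBS, and 0 fell, where 9.36% and 12% of all genes were called higher and 10.2% and 14.1% lower. The genes called with either treatment were Mmp15, Mmp17 and Mmp24, joined by Mmp23 with MBV. Mmp17, with a glycolipid anchor, had 13.7, 14.2 and 14.6 CPM with PBS, 21.3, 27.0 and 24.1 in the Fluvastatin group and 23.8, 28.9 and 28.9 in the MBV group. It rose 1.70-fold with Fluvastatin (FDR 0.000916) and 1.91-fold with MBV (FDR 0.000446). Mmp24, expressed in neurons, rose 1.28-fold (FDR 0.00303) and 1.17-fold (FDR 0.0149), the latter held in 3 of 6 fits without a library. Mmp23 rose with MBV from 0.185 ± 0.0458 CPM to 0.680 ± 0.354 (SD, n = 3 each, FDR 0.0267), a call that held in 1 of the 6 fits without a library. The median log2 fold change of the 13, with genes at the detection limit set to their bound, was 0 with Fluvastatin and 0.14 with MBV.

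Mmp15, a membrane-anchored MMP, had 13.4, 10.8 and 12.3 CPM with PBS, 16.6, 16.2 and 15.8 in the Fluvastatin group and 22.5, 24.5 and 25.2 in the MBV group. The 3 groups did not overlap and stood in this order. It rose 1.33-fold with Fluvastatin (FDR 0.0105) and 1.97-fold with MBV (FDR 0.000438) compared to PBS. Mmp15 was also higher with MBV than with Fluvastatin, the comparison within one set of library numbers, with 0.57 on the log2 scale (standard error 0.0727, FDR 0.0318). It was 1 of 11 genes called there. Leaving out a library kept this call in 2 of 6 fits, with log2 fold changes of 0.54 to 0.62 and an FDR of up to 0.320, and the FDR was 0.0562 with a minimum of 10 counts in 2 libraries and 0.216 with the replicate block.

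In the plasminogen system, 1 of the 8 genes tested, Plat, the tissue-type plasminogen activator, passed with each treatment as higher, a share near the 9.36% and 12% of all genes. It had 14.98, 11.9 and 16.4 CPM with PBS, 17.3, 22.2 and 26.2 in the Fluvastatin group and 27.9, 34.4 and 18.3 in the MBV group, and rose 1.51-fold (FDR 0.0191) and 1.85-fold (FDR 0.0125). The call with Fluvastatin held in 2 of the 6 fits without a library. Fitted with all 9 libraries, it had an FDR of 0.067. The median log2 fold changes of the list at the bound were -0.03 and 0.01.

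Among 25 ADAMTS and ADAM proteases, which cut proteoglycans and shed membrane proteins, 4 rose with Fluvastatin and 0 fell, and 7 rose with MBV and 1 fell, where 9.36% and 12% of all genes rose and 10.2% and 14.1% fell. Their median log2 fold change was 0.18 with Fluvastatin and 0.15 with MBV at the bound. Adamts4, an aggrecanase, had 2.11, 1.71 and 2.51 CPM with PBS, 3.63, 4.04 and 4.28 in the Fluvastatin group and 4.93, 6.85 and 4.53 in the MBV group, a rise of 1.89-fold (FDR 0.00612) and 2.56-fold (FDR 0.00217). Adamts19 rose 6.18-fold with Fluvastatin (FDR 0.00072), from 1.18 ± 0.350 to 7.38 ± 2.67 CPM. Adam8 rose 1.61-fold with Fluvastatin (FDR 0.0168, held in 5 of 6 fits without a library) and 1.90-fold with MBV (FDR 0.00155). Adam19 rose 1.57-fold with Fluvastatin (FDR 0.00994, held in 5 of 6). Adam15 (1.39-fold, FDR 0.00198) and Adamts10 (1.34-fold, FDR 0.00365) rose with MBV, and the other 3 that rose with MBV were Adamts19, Adam19 and Adam17. The gene that fell with MBV was Adam10, a main shedding protease. These last 4 were named after their values were seen.

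Of 10 other inhibitors and regulators, 1 rose and 1 fell in each comparison with PBS, which is near the share of all genes in each direction (9.36% and 12% higher, 10.2% and 14.1% lower), with medians at the bound of 0.0037 and 0.06. Furin, the protease that activates membrane-anchored MMPs within the cell, rose 1.14-fold with Fluvastatin (FDR 0.0154). Reck, a membrane-anchored MMP inhibitor, fell by 0.26 on the log2 scale (standard error 0.0747, FDR 0.0325), from 22.4, 20.9 and 19.3 CPM with PBS to 17.2, 17.2 and 17.9 with Fluvastatin. Without a library, Furin was called in 4 of 6 fits and Reck in 2 of 6, and Reck had an FDR of 0.0533 by DESeq2 and 0.109 fitted with all 9 libraries. With MBV, Lrp1, an uptake receptor for protease complexes, rose 1.21-fold (FDR 0.0146, held in 4 of 6 fits without a library), and Thbs2, the matricellular thrombospondin 2, fell by 0.92 on the log2 scale (FDR 0.0262), a call that held in 2 of 6 and had an FDR of 0.057 fitted with all 9 libraries.

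Of 15 matrix proteins that these enzymes cut or bind, 5 rose with Fluvastatin and 0 fell, and 7 rose with MBV and 1 fell, with median log2 fold changes of 0.15 and 0.27, beside the shares of all genes given above. Fn1, fibronectin, had 56.8, 55.9 and 81.2 CPM with PBS, 85.9, 121.6 and 128.2 in the Fluvastatin group and 128.9, 146.3 and 128.6 in the MBV group, and rose 1.73-fold (FDR 0.00781) and 2.07-fold (FDR 0.000905). Agrn, the heparan sulphate proteoglycan agrin, rose 1.32-fold (FDR 0.00416) and 1.43-fold (FDR 0.00281), and Tnc, tenascin C, rose 1.37-fold (FDR 0.0128, held in 4 of 6 fits without a library) and 1.49-fold (FDR 0.00186). Nid1 rose 1.71-fold with Fluvastatin (FDR 0.013, held in 5 of 6) and Lama4, a laminin chain of vessel walls, 1.96-fold with MBV (FDR 0.00117). The fifth gene that rose with Fluvastatin was Lama4, and the one that fell with MBV was Lama2, both named after their values were seen. Between MBV and Fluvastatin, edgeR called 0 genes of these last 4 lists.

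The labelled tissue was read from its markers. The calls below stand beside those over all genes tested. With Fluvastatin 9.36% of all genes were called higher and 10.2% lower, and with MBV 12% higher and 14.1% lower. The 12 retinal markers summed to 44630 to 48080 CPM with PBS, 39780 to 42630 in the Fluvastatin group and 30880 to 43220 in the MBV group, and none was at the detection limit. Besides the marker sums given with Mmp9, Mmp12, Timp1 and Timp3, the lens markers were far apart. The 12 of them summed to 2.47 to 8.32 CPM with PBS, 3.604 to 25.9 in the Fluvastatin group and 71.7 to 207.9 in the MBV group, and 11 rose with MBV. The 8 Müller glia markers summed to 3784 to 4385 CPM with PBS, 2116 to 3501 in the Fluvastatin group and 1961 to 3479 in the MBV group, with 5 and 2 of them called lower. The 8 fibroblast markers summed to 106.4 to 137.2 CPM with PBS, 30.3 to 128.6 in the Fluvastatin group and 28.3 to 116.2 in the MBV group. Single fibroblast markers went both ways, with 1 called higher and 3 lower with Fluvastatin, and 2 higher and 1 lower with MBV. Col3a1 rose and Lum fell with each treatment, while Col1a1 fell with Fluvastatin and rose with MBV. Of the 6 ciliary body and iris markers, 2 fell with Fluvastatin and 3 with MBV (Zic1 and Mfrp, with Otx1 in MBV), with median log2 fold changes of -0.58 and -0.85, while their sums overlapped PBS. The sum of the 8 endothelial markers lay wholly below PBS with Fluvastatin (360.6 to 391.9 against 401.5 to 459.1 CPM) and overlapped it with MBV. Flt1 (mean 142.7 CPM with PBS, 117.1 with Fluvastatin) was the only endothelial marker called lower with Fluvastatin. The median log2 fold change of these 8 was 0.14 with Fluvastatin and 0.36 with MBV, where Cdh5 and Vwf were called higher. The microglial and pericyte sums overlapped PBS with each treatment. The part of any of these cell types in the changes of the proteases and inhibitors was not tested.

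**Figure D4:**
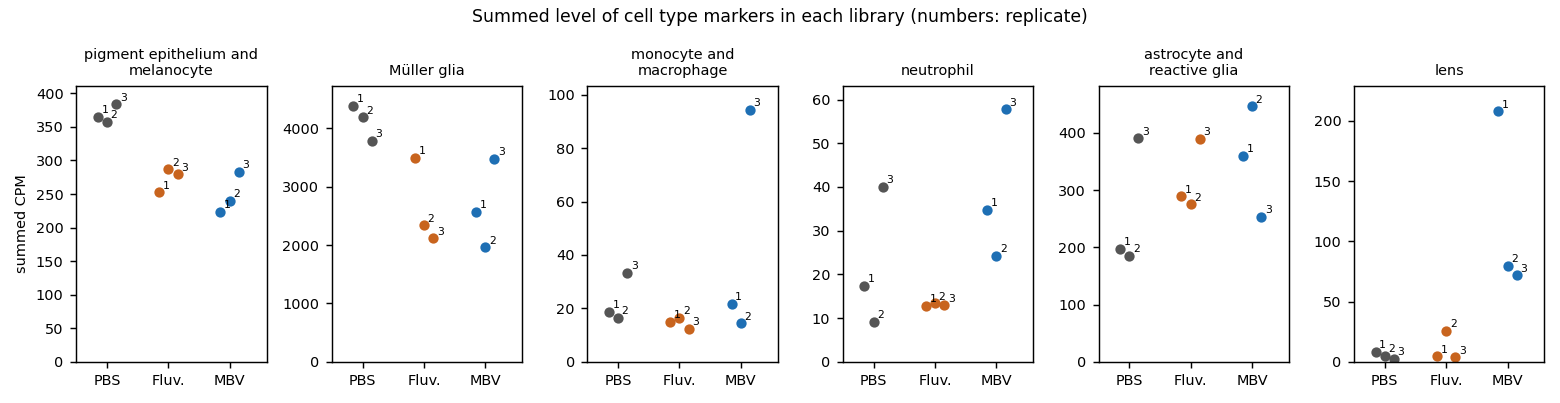
Summed CPM of the markers of 6 cell types (vertical axes, from 0) in each library, with the replicate number beside each point. The pigment epithelium and melanocyte sum, mostly Rlbp1, and the Müller glia sum are lower in all treated libraries than in all PBS libraries. The lens sum is above 71 CPM only in the MBV libraries, and MBV replicate 3 has the highest monocyte and macrophage sum.

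Across the 9 libraries the genes most like each member were found by Pearson's r of log2(CPM + 0.5) among 13971 genes with a mean of at least 1 CPM. Such values are the highest of many and the libraries share the 3 treatment groups, so they are given as a description. Plod1, a collagen lysyl hydroxylase, was most like Mmp2 (r 0.991), and Igsf3 most like Mmp9 (0.969). The closest to Mmp12 was Mrpl21 (0.977) and to Mmp14 Cachd1 (0.941). For the inhibitors these were Pbxip1 for Timp1 (0.924), Tlr4 for Timp2 (0.977), Perp for Timp3 (0.971) and Zfp286 for Timp4 (0.960). Among the members themselves, Mmp2 and Mmp9 went together (r 0.805) as did Timp2 and Timp3 (0.771), while Mmp2 and Timp3 went in opposite directions (-0.644).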

How the data were processed

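The raw counts per gene are as deposited: the authors aligned paired-end reads of total RNA libraries to GRCm39 and counted them with CLC Genomics Workbench, one column per library and not normalized. The 4 deposited tables also hold the authors' own comparisons (fold changes, p-values, FDRs), which were not used. In all, 9 libraries have count columns that name them, and 9 columns repeated between tables were identical. The 6 count columns that name no library were used in no step.

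Genes with at least 1 count in the 6 libraries of a comparison were scaled by TMM and tested in R 4.3.3 with edgeR 4.0.16 (quasi-likelihood test, 2 groups alone, Benjamini-Hochberg over all genes, FDR under 0.05), with DESeq2 1.42.0 as an alternative. On simulated counts 199 to 200 of 200 genes changed 2-fold were recovered, with 3 to 9 false calls, for the 3 comparisons. The changed genes were drawn from those with higher counts, and all genes had the same dispersion. This recovery therefore does not cover smaller changes, genes with few counts or uneven spread. CPM values use TMM over all 9 libraries, and lengths are the exon union of GENCODE mouse release 39 within the deposited gene region. All other steps ran in Python 3.11.15 (pandas 2.3.3).

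Named are all 10 members, up to 4 called genes per list and comparison (those with the smallest FDR), and the genes most alike. A few others were named after their values were seen: Adam10, Adam17, Adam19 and Adamts19 with MBV, Lama4 with Fluvastatin, Lama2, Rdh5, Rgr, and Tyr with MBV. The members and lists were chosen with earlier results of these data known. Promoter windows are from RefSeq (table build GRCm38.p6), each placed on GRCm39 by an exact match. Combined-treatment comparisons and effects balanced over both library sets were not run, since they need the unnamed columns.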

Additional observations from a re-analysis of the deposited data

How the results depend on the processing

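Compared to PBS with Fluvastatin, 4 members passed under every alternative that kept all 6 libraries, and 1 to 4 with 1 library left out. With MBV, 3 passed under all of these except the replicate block, which gave 2 (Timp3 lost, FDR 0.0604), and 2 to 6 with 1 library left out, 6 without MBV replicate 3. Between MBV and Fluvastatin 0 passed, or 0 to 1 with 1 library left out, the 1 being Mmp12 without MBV replicate 3. The cause of these changes was not tested, beyond the fewer libraries. Same-numbered libraries did not deviate together (r of their deviations -0.429 to 0.190 over the 9 pairs), so the numbers are not taken as pairs, and the block changed no other member's call. Over all genes, calls numbered 3687 with Fluvastatin (1726 to 4402 with 1 library left out), 4937 with MBV (2711 to 5664) and 11 between them (0 to 197, 126 by DESeq2, 38 in one fit of all 9 libraries, 5 with at least 10 counts in 2 libraries, 0 with the block). Library totals without TMM and no filter were alternatives chosen after seeing the data. Mmp3 has no value with a minimum of 10 counts. The alternatives for the combined treatment were not run.

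Of the members' log2 fold changes, 205 of 207 kept direction and call with all libraries in, and 146 of 180 with 1 left out. Those that changed sign passed the threshold in neither fit. With 1 library left out, Fluvastatin against PBS ranged from -0.0044 (without PBS replicate 2) to 0.15 for Mmp14, from -0.88 to 0.46 (without PBS replicate 3) for Timp1, and from -0.37 to 0.45 (without PBS replicate 3) for Plau. MBV against PBS ranged from -0.36 (without PBS replicate 1) to 1.037 for Mmp3, from -0.30 (without PBS replicate 2) to 1.03 for Timp1, and from -0.20 (without MBV replicate 1) to 0.64 for Plau. MBV against Fluvastatin ranged from -0.10 to 0.10 (without MBV replicate 1) for Timp3, from -0.0683 (without MBV replicate 2) to 0.19 for Timp4, and from -0.0915 (without MBV replicate 1) to 0.48 for Plau. On library totals without TMM this Timp3 value was 0.0257. The genes named by rule in the 5 other lists kept direction in all alternatives run, and their calls held in 147 of 180 fits with 1 library left out and in 204 of 210 others. The 6 lost were Reck (DESeq2, FDR 0.0533, and one fit of all 9 libraries, 0.109), Plat with Fluvastatin (0.067) and Thbs2 with MBV (0.057) in that same fit, and Mmp15 between the treatments (0.0562 with at least 10 counts, 0.216 with the block). Genes named after their values were seen were not rerun. Mmp3, Plau and Timp1 had at most 87 counts in any library, and Timp1 ranged from 16 to 87 within PBS.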
